A study of Mus musculus with 24 samples.

Results

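*Hfe*, the transferrin receptor genes *Tfrc* and *Tfr2*, and the transferrin gene *Trf* were followed across liver and duodenum of mice with and without *Hfe*. The probe sets of these 4 genes were found by gene symbol alone, on an array whose single-gene probe sets name 18194 genes. The genes themselves were chosen with earlier results of these data known. Of the 45101 probe sets on the array 11 carry one of these symbols, 2 for *Hfe*, 6 for *Tfrc*, 2 for *Tfr2* and 1 for *Trf*. Of the 6 for *Tfrc*, 3 are control probe sets that the manufacturer tiled along its transcript, and these are described beside the others but were left out of the main test. The 1 probe set of *Trf*, 1425546_a_at, is annotated to *Srprb* as well, a subunit of the signal recognition particle receptor of the endoplasmic reticulum, so its signal cannot be given to *Trf* alone. The 8 that are no controls all passed the filter on low signals and were tested.

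Iron circulates in plasma bound to transferrin, which the liver secretes. Transferrin receptor 1, the product of *Tfrc*, binds iron-loaded transferrin and carries it into cells, and its mRNA is known to be stabilized when iron regulatory proteins bind it in iron-poor cells. HFE is a class I-like membrane protein that pairs with beta2-microglobulin and binds transferrin receptor 1. Transferrin receptor 2 is a hepatocyte protein that, with HFE, takes part in the control of hepcidin, the hormone that limits iron export into plasma.

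The mice were males of 7 weeks, of the strains C57BL/6 (B6) and DBA/2 (D2), either wild-type (WT) or Hfe-deficient (KO, *Hfe*-/-), with 3 mice for each strain and genotype. Liver and duodenum were each hybridized to 12 arrays, which gives 8 groups of 3 arrays and 24 arrays in all. KO mice were bred in the study's own facility and WT mice were bought from a breeder, so origin and genotype cannot be told apart. The values are MAS5 signals, scaled by the authors so that the trimmed mean of every array is 100, and the median signal was 15.7 to 20.9 on liver arrays and 20 to 23.4 on duodenum arrays. No detection calls were used, so a signal near or under these medians is described here as near background. Hepatocyte markers had a mean log2 signal of 12.58 to 12.93 on liver arrays and 2.6 to 3.95 on duodenum arrays, and enterocyte markers of 3.35 to 4.37 on liver and 11.2 to 11.8 on duodenum arrays, as the labels have it. The duodenum arrays also carried pancreatic acinar markers, at 9.77 to 12.99 on 10 of the 12 arrays and far lower on D2 KO 2 and D2 KO 3, the lowest being 6.17. On bulk tissue, fewer cells of a type and less RNA per cell cannot be told apart.

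*Hfe*, the gene disrupted, was lower on each KO array than on any WT array of the same strain and tissue with its brighter probe set, 1422645_at, but not with its dimmer one in D2. On 1422645_at the liver signal was 674, 685 and 691 in B6 WT mice and 89.2, 86.2 and 98.8 in B6 KO mice. In D2 mice it was 437, 434 and 515 in the WT and 82.9, 70.4 and 82.9 in the KO. The signal left in KO liver, 0.133 of the WT level in B6 and 0.171 in D2 on the log2 scale, stayed well above the array median. In duodenum the WT signal was 92.9, 76.6 and 98.7 in B6 and 105, 97.4 and 95.3 in D2. The KO signal there was 25.7, 25.4 and 15.7 in B6, close to the array median, and 29, 34.8 and 45.1 in D2. The KO-WT difference was called in all 4 comparisons (log2 -2.91 and -2.55 in liver of B6 and D2, -2.03 and -1.47 in duodenum, limma adjusted p = 1.72e-09, 1.13e-08, 0.00815 and 0.0283). With 1 array left out the duodenum differences ranged from -2.15 to -1.80 in B6 and from -1.64 to -1.32 in D2, but not every such fit kept the call. The call of B6 was lost without B6 WT 3 (-1.96, limma adjusted p = 0.105), and that of D2 without D2 WT 1 (-1.43, adjusted p = 0.134) or D2 KO 2 (-1.46, adjusted p = 0.13).

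The other *Hfe* probe set, 1450702_at, was dimmer and was not called in any comparison. In B6 liver it gave 69, 64 and 40.8 in the WT against 12.7, 13.3 and 17.2 in the KO, a log2 difference of -1.98 (standard error 0.69, adjusted p = 0.271). In D2 liver the WT signals of 8.33, 30 and 18.5 overlapped the KO signals of 18.5, 15.3 and 2.18, all near background. Where the 2 probe sets lie relative to the disrupted part of the gene is not given in the sources used here. The remaining KO signal of the brighter one was not traced further.

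WT livers also differed in *Hfe* between the strains. The paper, with its own test on the same arrays, reports *Hfe* as lower in D2 than in B6 WT liver, with no significant difference in duodenum. The 3 D2 WT signals, 434 to 515, lay under the 3 B6 WT signals, 674 to 691, a log2 difference of -0.57 (D2 minus B6, standard error 0.11, adjusted p = 0.00353 against a threshold of 0.01 for strains). This was the 1 of 8 member probe sets called between WT livers, where 4.35% of all probe sets were called. The call did not hold with hybridization run as a block (-0.68, adjusted p = 0.0158), nor without any 1 of B6 WT 1, 2 or 3 or D2 WT 1 or 2 (adjusted p = 0.0154 to 0.0233). On the dim probe set the WT difference was -1.76 with an adjusted p of 0.151, again with no overlap between strains. In WT duodenum the order was the other way, 99.2 ± 5 (SD, n = 3) in D2 and 89.4 ± 11.4 (SD, n = 3) in B6, and the strains overlapped (log2 0.16, 95% confidence interval -0.33 to 0.64). None of the 8 was called between WT duodena by limma (0 also at an unadjusted p under 0.05), where 3.37% of all probe sets were called and 18.1% had such a p.

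**Figure D1:**
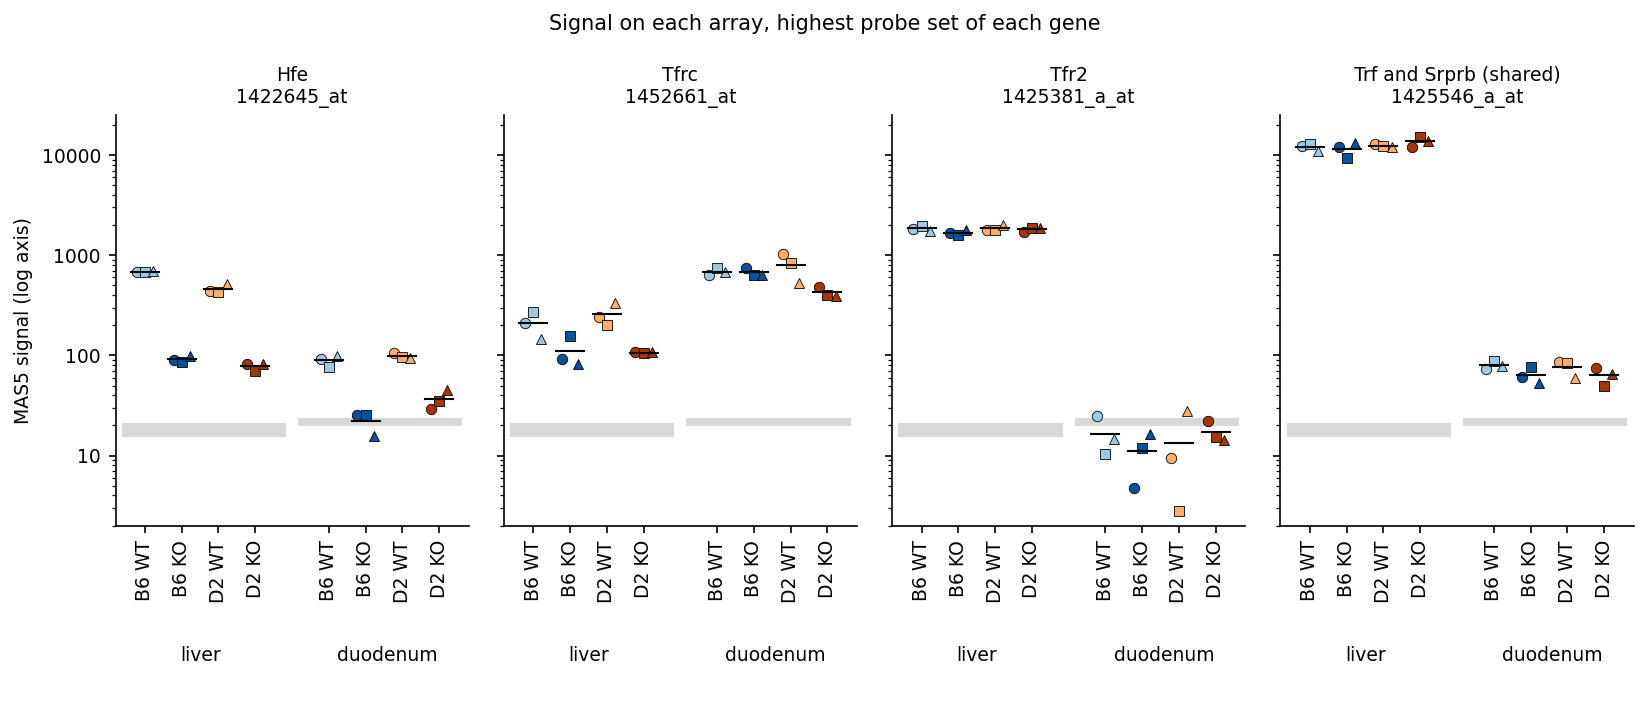
MAS5 signal (log axis) on each array for the probe set of each gene with the highest mean log2 signal over the 24 arrays, in 4 groups per tissue. Circles, squares and triangles are replicates 1, 2 and 3, black bars are group means, and gray bands span the median signals of the arrays of a tissue. *Tfr2* in duodenum lies in or under the band except on 2 arrays just above it, and *Tfrc* is the one gene that is higher in duodenum than in liver.

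The 2 receptor genes had opposite tissue patterns. *Tfrc*, on its brightest probe set 1452661_at, gave 636, 746 and 681 in B6 WT duodenum and 209, 274 and 146 in B6 WT liver. In D2 WT mice it gave 1030, 843 and 533 in duodenum and 242, 201 and 333 in liver. Liver was thus lower than duodenum with no overlap, with a log2 difference in B6 of -1.76 and in D2 of -1.61 (limma adjusted p = 2.62e-06 and 8.44e-06, each with a standard error of 0.24). *Tfr2*, in contrast, gave 1600 to 2010 on the 12 liver arrays with 1425381_a_at and 3540 to 4260 with 1459994_x_at, above at least 97.6% of the probe sets of any liver array. On the 12 duodenum arrays the same probe sets gave 2.77 to 28.1 and 0.796 to 16.4. These signals are near background, so that the liver-duodenum difference was called in both strains but no fold is given for it. The tissues were scaled to one trimmed mean only, so each of these differences is relative to the mean of its arrays.

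In WT mice 6 of the 8 member probe sets were called between the tissues in B6 and 6 in D2, 4 of them higher and 2 lower in liver in each strain. Of all probe sets 44.7% were called in B6 (18.5% as higher in liver and 26.2% as lower) and 44.4% in D2 (18.2% and 26.2%). With hybridization run as a block the *Tfrc* difference was -1.27 in B6 and -1.43 in D2, past a threshold of 0.05 but not of 0.01 (adjusted p = 0.021 and 0.0192). The other of the 2 lower calls, *Tfrc* 1422966_a_at, was less stable. It was -1.58 in B6 and -1.35 in D2, was lost in 6 and 10 of 15 alternatives, and with 1 array left out ranged from -2.0 to -1.31 in B6 and from -1.83 to -0.91 in D2. *Hfe* was higher in liver, by 2.94 (standard error 0.17) in B6 and 2.22 (standard error 0.17) in D2 on the log2 scale. The probe set shared by *Trf* and *Srprb* gave 9270 to 15300 on liver arrays, above at least 99.9% of the probe sets of any liver array, and 49 to 88.6 on duodenum arrays.

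The windows around the annotated starts of the receptor genes are shown because their genes run opposite ways between the tissues. They come from RefSeq (build GRCm38.p6), from 250 bases before a start to 50 after it. The search covered both strands. The hypoxia response core was searched as ACGTG. The GC box was searched as GGGCGG, and the GATA factor motif as GATAAG. None of these overlaps another in these windows, and matches are in capitals. Of 32851 such windows 19.6% hold the hypoxia response core, 35.7% the GC box and 7.4% the GATA motif. The first of 2 windows of *Tfrc* is chr16:32608646-32608945 (plus strand), and the first of 3 of *Tfr2* is chr5:137569590-137569889 (plus strand).
Tfrc: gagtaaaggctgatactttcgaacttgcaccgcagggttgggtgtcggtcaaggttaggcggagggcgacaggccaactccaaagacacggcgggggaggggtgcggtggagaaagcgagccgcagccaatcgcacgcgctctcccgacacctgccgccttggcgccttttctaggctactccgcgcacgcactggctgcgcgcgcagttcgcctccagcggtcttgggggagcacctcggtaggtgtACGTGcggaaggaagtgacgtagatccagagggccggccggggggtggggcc
Tfr2: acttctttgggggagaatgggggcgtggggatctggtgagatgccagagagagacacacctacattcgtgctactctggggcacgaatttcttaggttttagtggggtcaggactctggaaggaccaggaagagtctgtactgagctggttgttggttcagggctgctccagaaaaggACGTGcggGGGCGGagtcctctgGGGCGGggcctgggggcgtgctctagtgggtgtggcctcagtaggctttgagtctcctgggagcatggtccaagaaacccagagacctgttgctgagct
The *Tfrc* window shown holds the hypoxia response core 2 bases before the start, and neither of the other motifs. The *Tfr2* window shown holds it 72 bases before its start, with GC boxes 64 and 49 bases before it. The second *Tfrc* window also holds the core, with 2 GC boxes, the second of *Tfr2* holds the core and the third a GATA motif, and the 1 window of *Hfe* holds none of them. A match of these letters is a description and no measure of binding.

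In liver, *Tfrc* was lower in KO mice of both strains, and the difference was called in D2. The paper, with its own test on probe-level data, lists *Tfrc* among its changed iron genes for duodenum and not for liver. On 1452661_at D2 WT livers gave 242, 201 and 333 and D2 KO livers 107, 105 and 107, a log2 difference of -1.25 (standard error 0.25, 95% confidence interval -1.79 to -0.72, adjusted p = 0.0243). All 3 KO signals lay under all 3 WT signals and were nearly equal. B6 WT livers gave 209, 274 and 146 and B6 KO livers 91.3, 156 and 82.2, a log2 difference of -0.95 (standard error 0.25, 95% confidence interval -1.48 to -0.41) with an adjusted p of 0.129, which misses the threshold of 0.1. Here B6 KO 2 was above B6 WT 3, and the groups overlapped by this pair of arrays. Without B6 KO 2 the difference was -1.23 (adjusted p = 0.042), and without B6 WT 3, the 1 array washed with another fluidics protocol, it was -1.18 (adjusted p = 0.0723). With other arrays left out it was as small as -0.73. Over all alternatives run, the highest adjusted p by limma was 0.436. The D2 effect minus the B6 effect was -0.31 (95% confidence interval -1.06 to 0.45, adjusted p = 0.832), so a difference between the strains was not detectable with 3 mice per group.

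The further probe sets of *Tfrc* ran the same way in liver. All 6, the 3 controls included, had a KO-WT difference under 0 in both strains, from -2.73 to -0.17 in B6 and from -1.61 to -0.5 in D2. They share a transcript and the same RNA, so they are not 6 independent observations. None of the 5 was called by itself. On 1422966_a_at D2 WT livers gave 96, 63.9 and 110 and D2 KO livers 61.3, 43 and 28.5 (-1.06, standard error 0.38, adjusted p = 0.22), again without overlap. On 1422967_a_at the B6 WT signals of 13.4, 16 and 13.7 and the KO signals of 1.59, 6.66 and 0.941 were all near background.

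Of the 8 member probe sets 1 was called as lower in KO liver in B6 and 2 in D2, where 0.481% and 1.4% of all probe sets were called as lower. The calls were *Hfe* 1422645_at in both strains and *Tfrc* 1452661_at in D2. KO arrays lay under all WT arrays for 3 of the 8 in B6 and 5 of the 8 in D2, against 8.87% and 8.1% of all probe sets. The 3 were both *Hfe* probe sets and *Tfrc* 1422967_a_at, near background. The 5 were *Hfe* 1422645_at, the 3 *Tfrc* probe sets that are no controls, and *Tfr2* 1459994_x_at. A fall of *Hfe* was set by the disruption, so these counts do not describe the members as a set. The D2 call of *Tfrc* was lost when limma was run with no trend of the variance (adjusted p = 0.177) and when the probe sets of the gene were averaged (-1.31, adjusted p = 0.128). Hybridization runs were unevenly spread over the groups. Within the run that held D2 WT 3 and all 3 D2 KO livers the difference was -1.65, and within the run that held B6 KO 1 and all 3 B6 WT livers it was -1.15. With run as a block the D2 difference was again -1.65. That fit sets the D2 KO livers against D2 WT 3 alone, the highest of the D2 WT livers, so it rests on 1 WT array.

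Markers of the other cell types were read beside the *Tfrc* values, since this receptor is abundant on red cell precursors and dividing cells. The mean log2 signal of the erythroid markers measured, 4 of 12 listed, was 5.69 to 5.96 in B6 WT and 6 to 6.17 in B6 KO liver, and 6.18 to 6.44 in D2 WT and 6.18 to 6.51 in D2 KO liver. The markers did not move together, since 3 of the 4 had a KO-WT difference above 0 in B6 and 1 of the 4 in D2, with medians of 0.16 and -0.24. The 1 in D2 was *Alas2*, which also has an iron-responsive element. The 14 proliferation markers gave 4.17 to 4.58 in B6 WT and 4.05 to 4.15 in B6 KO liver. In D2 liver they gave 3.8 to 3.88 in the WT and 3.56 to 4.14 in the KO. Their KO-WT difference was above 0 for 7 markers in B6 (median -0.01) and for 8 in D2 (median 0.08). The 10 macrophage and Kupffer cell markers gave 8.12 to 8.59 in B6 WT and 7.49 to 8.28 in B6 KO liver. For D2 liver the ranges were 7.57 to 7.99 in the WT and 7.13 to 7.82 in the KO. This list ran lower in KO liver, as *Tfrc* did. Its KO-WT difference was above 0 for 0 of the 10 markers in B6 (median -0.46) and for 2 in D2 (median -0.13). No single marker of it was called by limma in either strain. The part of these cells in the *Tfrc* difference was not tested.

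**Figure D2:**
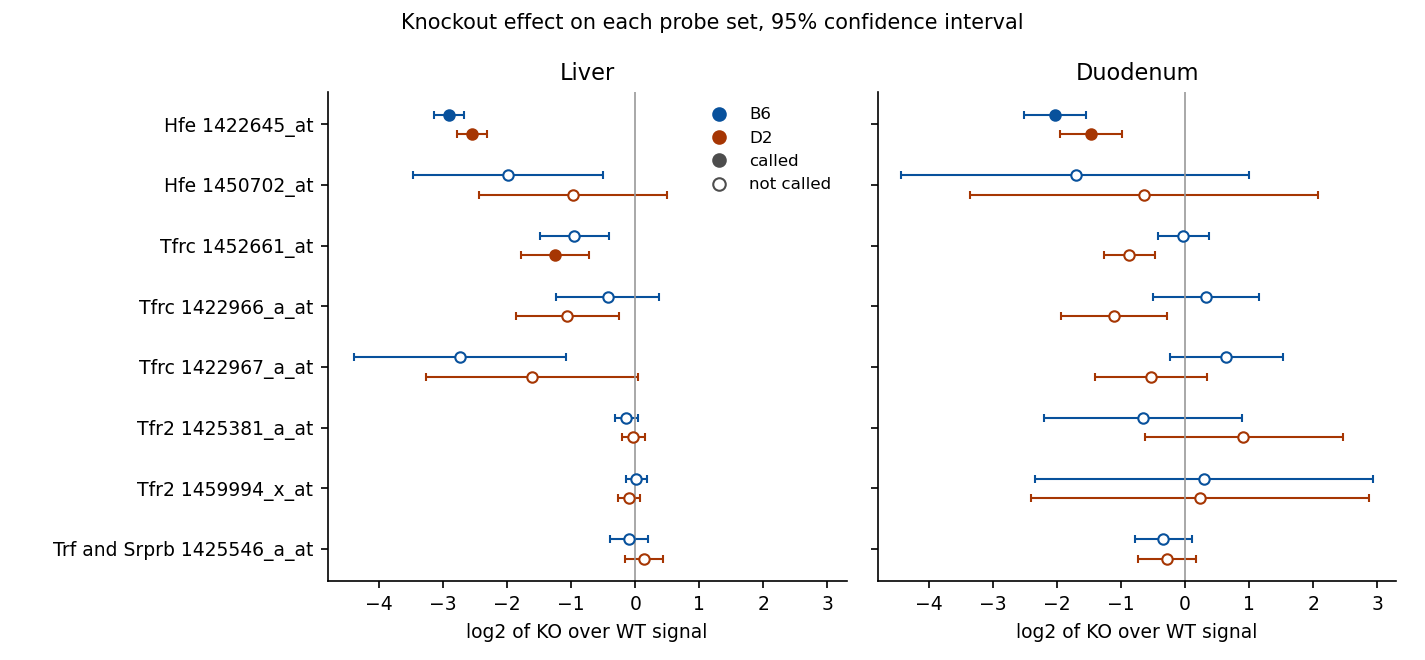
Log2 of KO over WT signal (horizontal axis) for the 8 probe sets tested, with bars for the 95% confidence interval of the limma fit, B6 in blue and D2 in brown, and filled points where the difference was called. *Hfe* 1422645_at is called in all 4 comparisons and *Tfrc* 1452661_at in D2 liver, and the intervals of *Tfr2* are narrow around 0 in liver and wide in duodenum.

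In duodenum, *Tfrc* was close between the genotypes in B6 and lower in D2 KO mice, but no difference was called here. The paper, with its own S-score test on probe-level data, reports *Tfrc* as lower in D2 KO duodenum. B6 WT duodena gave 636, 746 and 681 and B6 KO duodena 743, 641 and 639, a log2 difference of -0.03 (standard error 0.19, 95% confidence interval -0.43 to 0.37). D2 WT duodena gave 1030, 843 and 533 and D2 KO duodena 483, 399 and 393, a log2 difference of -0.87 (standard error 0.19, 95% confidence interval -1.27 to -0.47, adjusted p = 0.108). The D2 groups did not overlap, but D2 WT 3 was much nearer to the KO signals than the other WT signals were. The D2 effect minus the B6 effect was -0.84 (standard error 0.26) with an unadjusted p of 0.0071 and an adjusted p of 0.347 by limma, so that it did not pass. KO duodena of D2 lay under those of B6, 425 ± 50.2 against 675 ± 59.6 (SD, n = 3 each), a log2 difference of -0.67 (adjusted p = 0.0457 against a threshold of 0.01).

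**Figure D3:**
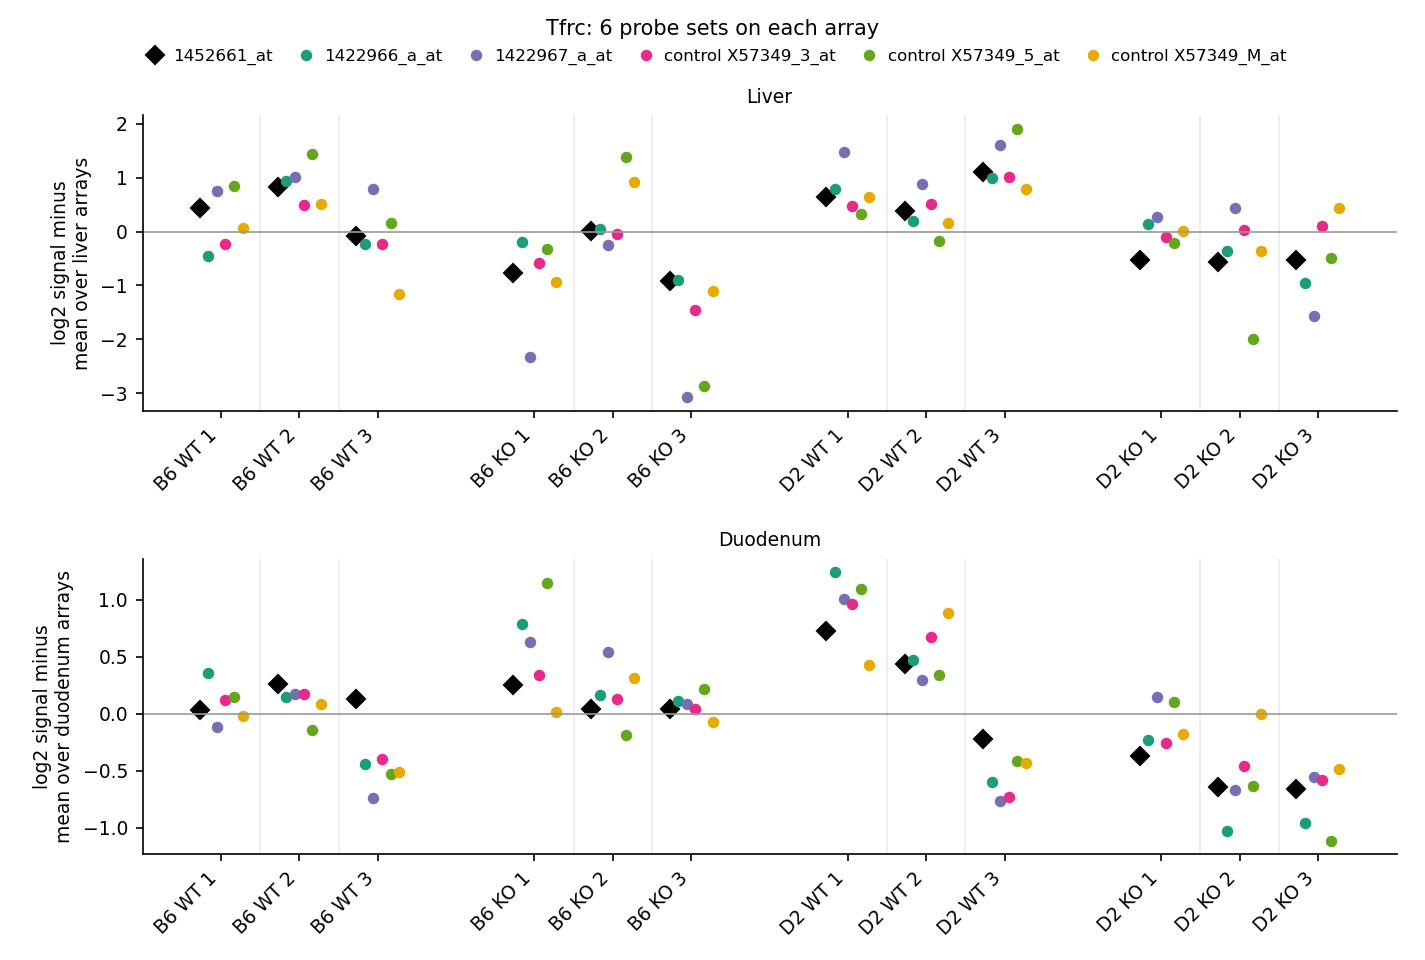
Log2 signal of each of the 6 *Tfrc* probe sets (diamonds for 1452661_at, circles for the others, of which 3 are controls) minus its own mean over the 12 arrays of a tissue (vertical axis), for each array (horizontal axis). In duodenum D2 WT 1 and D2 WT 2 are above 0 with every probe set and D2 WT 3 is under 0 with every probe set.

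The *Tfrc* probe sets ran alike in duodenum too. All 6 had a D2 difference under 0, from -1.11 to -0.52, and an effect in D2 minus that in B6 under 0, from -1.46 to -0.75. In B6 the same 6 ran from -0.03 to 0.64, 1 of them under 0. On 1422966_a_at the D2 WT signals were 408, 239 and 114 and the D2 KO signals 147, 84.8 and 88.9, so D2 KO 1 exceeded D2 WT 3 (-1.11, standard error 0.38, adjusted p = 0.293). On the control for the 3' end of the transcript they were 183, 150 and 56.8 in the WT and 78.6, 68.3 and 62.7 in the KO (-0.74, standard error 0.33), and D2 WT 3 was the lowest of the 6.

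D2 WT 3 was also the 1 D2 WT duodenum processed with the KO duodena. The 3 D2 KO arrays and D2 WT 3 shared a run and a fluidics station, and D2 WT 1 and D2 WT 2 were on the other station of that run with B6 KO 2 and B6 KO 3. Within the shared station the KO-WT difference was -0.34 on 1452661_at, -0.14 on 1422966_a_at and 0.41 on 1422967_a_at. With run and station as a block the first of these had an adjusted p of 0.708. Without D2 WT 3 the difference was -1.14 (adjusted p = 0.00724) and the D2 effect minus the B6 effect was -1.11 (adjusted p = 0.0593), both then called. Without D2 KO 1 the D2 difference was called as well (-0.97, adjusted p = 0.0447). No other D2 WT duodenum was on that station, so its part and that of the genotype cannot be told apart for D2 WT 1 and D2 WT 2.

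**Figure D4:**
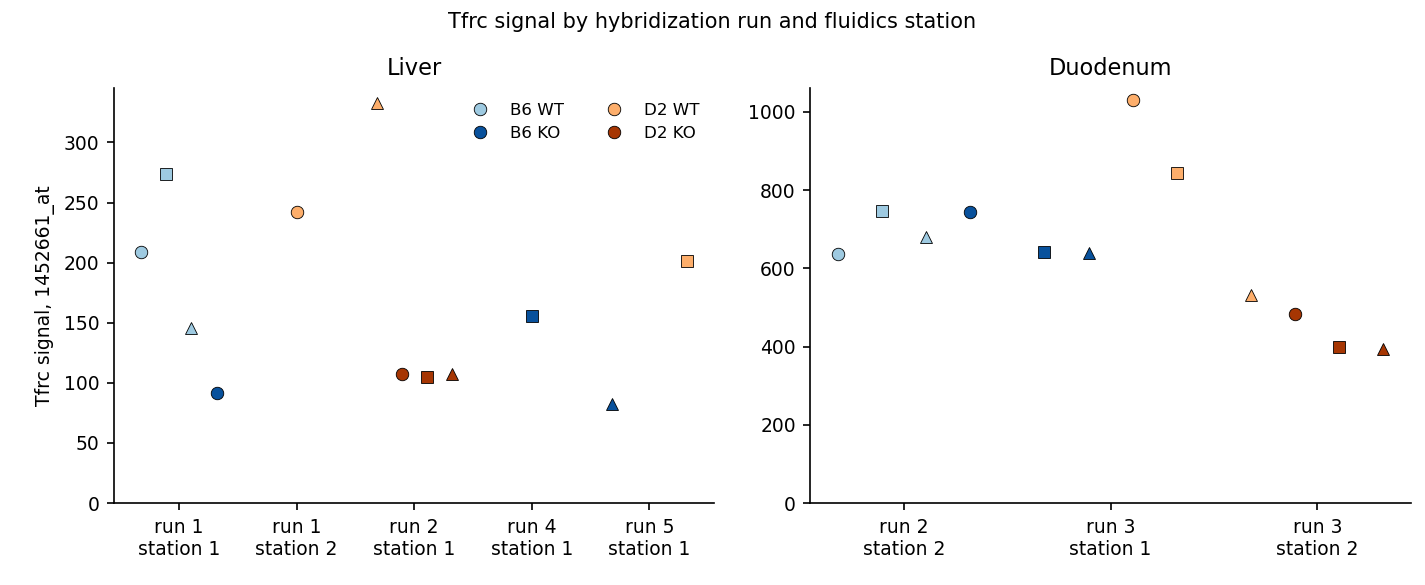
Signal of *Tfrc* probe set 1452661_at (vertical axis, linear from 0) on the arrays of each hybridization run and fluidics station (horizontal axis), colored by strain and genotype, with circles, squares and triangles for replicates 1, 2 and 3. In duodenum D2 WT 3, at 533, stands beside the D2 KO arrays, at 393 to 483, and in liver D2 WT 3, at 333, stands far above the D2 KO arrays of its own run.

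Markers of other cells also moved with the D2 KO duodena. The mean log2 signal of the 10 pancreatic acinar markers measured, relative to its mean over duodenum arrays, was -4.89 on D2 KO 2 and -3.55 on D2 KO 3 but 1.93 on D2 KO 1. That of the 14 proliferation markers was -0.12, -0.26 and -0.45 on the 3 D2 KO arrays and 0.22, 0.07 and -0.07 on the 3 D2 WT arrays. With the acinar mean as a covariate the *Tfrc* difference in D2 was -0.81 (adjusted p = 0.329), and with the proliferation mean it was -0.53 (adjusted p = 0.944). With D2 KO 2 and D2 KO 3 left out it was -0.68. D2 KO 1 is then the 1 D2 KO array, its spread is assumed to be that of the other groups, and the adjusted p of 0.84 says little.

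In duodenum 1 of the 8 member probe sets was called as lower in B6 KO mice and 1 in D2 KO mice, *Hfe* 1422645_at in each, where 0.0107% and 0.121% of all probe sets were called as lower. KO arrays lay under all WT arrays for 2 of the 8 in B6 and 2 in D2, against 6.13% and 6.66% of all probe sets. In B6 these were both *Hfe* probe sets, and in D2 *Hfe* 1422645_at and *Tfrc* 1452661_at. A fall of *Hfe* was set by the disruption here too. Between the strains, 0 of the 8 effects differed by limma in liver and 0 in duodenum (1 and 2 at an unadjusted p under 0.05). Of all probe sets 0.214% and 0.0143% were called, and 9.74% and 10.4% had such an unadjusted p. In KO mice 0 of the 8 differed between D2 and B6 in liver and 0 in duodenum (0 and 3 at an unadjusted p under 0.05). Of all probe sets 4.73% and 3.65% were called, and 21.3% and 20.8% had such an unadjusted p.

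Ordered by group means, *Hfe* was highest in B6 WT liver (683 ± 8.56) and then in D2 WT liver (462 ± 45.8; SD, n = 3), which overlapped with no other group. D2 WT duodenum (99.2), B6 KO liver (91.4), B6 WT duodenum (89.4) and D2 KO liver (78.7) followed, each overlapping the next. KO duodenum was lowest, with 36.3 in D2 and 22.3 in B6, and these groups overlapped neither each other nor the rest. *Tfrc* ran from D2 WT duodenum (801 ± 249) through B6 WT (688 ± 55.3) and B6 KO duodenum (675 ± 59.6) to D2 KO duodenum (425 ± 50.2), then from D2 WT liver (259 ± 67.8) and B6 WT liver (210 ± 64.1) to B6 KO (110 ± 40) and D2 KO liver (106 ± 0.879; all SD, n = 3). The first 3 overlapped in their signals. D2 KO duodenum overlapped neither of its neighbors. Each of the liver groups overlapped the next in this order.

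*Tfr2* showed no called difference between genotypes or strains. On 1425381_a_at B6 livers gave 1830, 1960 and 1760 in the WT and 1670, 1600 and 1770 in the KO, and D2 livers 1780, 1790 and 2010 in the WT and 1710, 1890 and 1860 in the KO. The KO-WT log2 difference was -0.14 (95% confidence interval -0.32 to 0.04) in B6 and -0.03 (95% confidence interval -0.21 to 0.15) in D2. On 1459994_x_at it was 0.02 (-0.15 to 0.19) and -0.09 (-0.27 to 0.08). The 3 D2 KO livers, 3790 to 3950 on that probe set, lay just under the 3 D2 WT livers, 3970 to 4260. The ends of these 4 intervals lay between -0.32 and 0.19. In duodenum the intervals were far wider, as the signals are near background there.

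For the probe set annotated to *Trf* and *Srprb* no difference between genotypes passed the test. In liver it gave 12400, 12900 and 11000 in B6 WT and 11900, 9270 and 13300 in B6 KO mice (log2 difference -0.09, 95% confidence interval -0.39 to 0.2). D2 livers gave 12900, 12300 and 12000 in the WT and 11900, 15300 and 13900 in the KO (0.14, 95% confidence interval -0.16 to 0.43). In duodenum the differences were -0.34 (-0.79 to 0.11) in B6 and -0.28 (-0.73 to 0.17) in D2. Transferrin mRNA is a major hepatocyte product, and the 4 liver groups overlapped. These signals are among the highest of the array, and whether they were saturated was not tested, so a difference in liver may be understated.

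Genes that work with the members were read from 4 lists, of which 57 distinct genes were measured. The transferrin cycle list, with endosomal partners and *B2m*, which encodes beta2-microglobulin, had 14 genes measured. By limma 0 of these were called in either strain or tissue. At an unadjusted p under 0.05 there were 1 in B6 and 3 in D2 liver, and 0 in B6 and 4 in D2 duodenum. The share of all genes with such an unadjusted p between genotypes is not given here, so these counts cannot be read as an excess. *B2m* itself had a KO-WT log2 difference of -0.07 (standard error 0.12) in B6 liver and 0.03 (standard error 0.12) in D2 liver. *Steap3*, the endosomal ferrireductase, had -0.39 (standard error 0.27) and 0.62 (standard error 0.27), on signals of 31 to 50.1 in the group means of liver.

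Of 12 genes measured of the list of iron-responsive-element binding and *Tfrc* mRNA decay, 1 was called as higher in B6 liver and 1 in D2 liver. *Slc40a1*, the iron exporter ferroportin, rose in B6 liver from 1130 ± 151 to 2050 ± 295 (SD, n = 3 each), by 0.85 (standard error 0.12, adjusted p = 0.00605). In D2 liver it went from 2050 ± 251 to 2640 ± 41, a log2 difference of 0.37 (adjusted p = 0.174) that was not called, and the difference between the strains was not called either (-0.48, adjusted p = 0.366). The paper, with its own test and another probe set of *Slc40a1*, reports a rise in liver of both strains. *Alas2*, the erythroid enzyme of heme synthesis, rose in D2 liver from 832 ± 165 to 1900 ± 311, by 1.19 (standard error 0.16, adjusted p = 0.00183), and had 0.25 (adjusted p = 0.588) in B6 liver, again with no call for the difference between the strains (0.95, adjusted p = 0.148). Both mRNAs carry an iron-responsive element, and *Alas2* is also 1 of the erythroid markers above. The iron regulatory proteins themselves were not called, *Aco1* having 0.06 and -0.08 and *Ireb2* -0.16 and -0.32 in liver of B6 and D2. In D2 duodenum *Ireb2* went from 609 ± 36 to 800 ± 112 (SD, n = 3 each), which was not called either. The paper, with its own test, reports *Ireb2* as higher in D2 KO duodenum.

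Of 21 genes measured of the list of hepcidin sensing, 4 were called as lower in D2 liver. By limma 0 were called in B6 liver (4 at an unadjusted p under 0.05, with no share of all genes to set beside it). *Hamp*, which encodes hepcidin, went from 5250 ± 580 to 1760 ± 639 in D2 liver, a log2 difference of -1.64 (standard error 0.21, adjusted p = 0.00124). *Hamp2* had -1.43, *Fgl1*, a hepatocyte-secreted protein, -1.40, and *Id1*, a target of BMP signaling, -0.86 (adjusted p = 0.0929). For *Hamp* and *Hamp2* the D2 effect minus the B6 effect was called too (-1.67 and -1.92, limma adjusted p = 0.0401 and 0.00933), while those of *Fgl1* and *Id1* were not. Whether the probe sets of *Hamp* and *Hamp2* also read each other's transcript was not tested, so these may not be separate results. *Fgl1* also went from 3690 ± 312 to 2540 ± 321 in B6 liver, a log2 difference of -0.54 (adjusted p = 0.236) that did not pass. *Lcn2*, a siderophore-binding protein and 1 of 10 measured of the list of plasma carriers, fell in D2 liver by 1.38 (adjusted p = 0.0962). The paper's quantitative PCR found the falls of *Hamp*, *Hamp2* and *Lcn2* again in the mice used for the arrays. In its further D2 mice they were not reproduced, with only a trend for *Hamp* and *Hamp2*.

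Over the 57 genes, 1 was called as higher and 0 as lower in B6 liver and 1 as higher and 5 as lower in D2 liver, with medians of 0.06 and 0.02 against 0 and 0.02 over 13006 genes. Of those genes 0.63% were called as higher and 0.515% as lower in B6 liver, and 1.72% and 1.58% in D2 liver. In duodenum 0 of the 57 were called in either strain by limma, where 0.00769% and 0.484% of all genes were called. The medians were -0.07 in B6 and 0.12 in D2 against -0.01 and 0.01 over all genes. At an unadjusted p under 0.05 there were 1 of the 57 in B6 and 16 in D2. The share of all genes at that unadjusted p is not given here, so the 16 cannot be read as an excess.

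**Figure D5:**
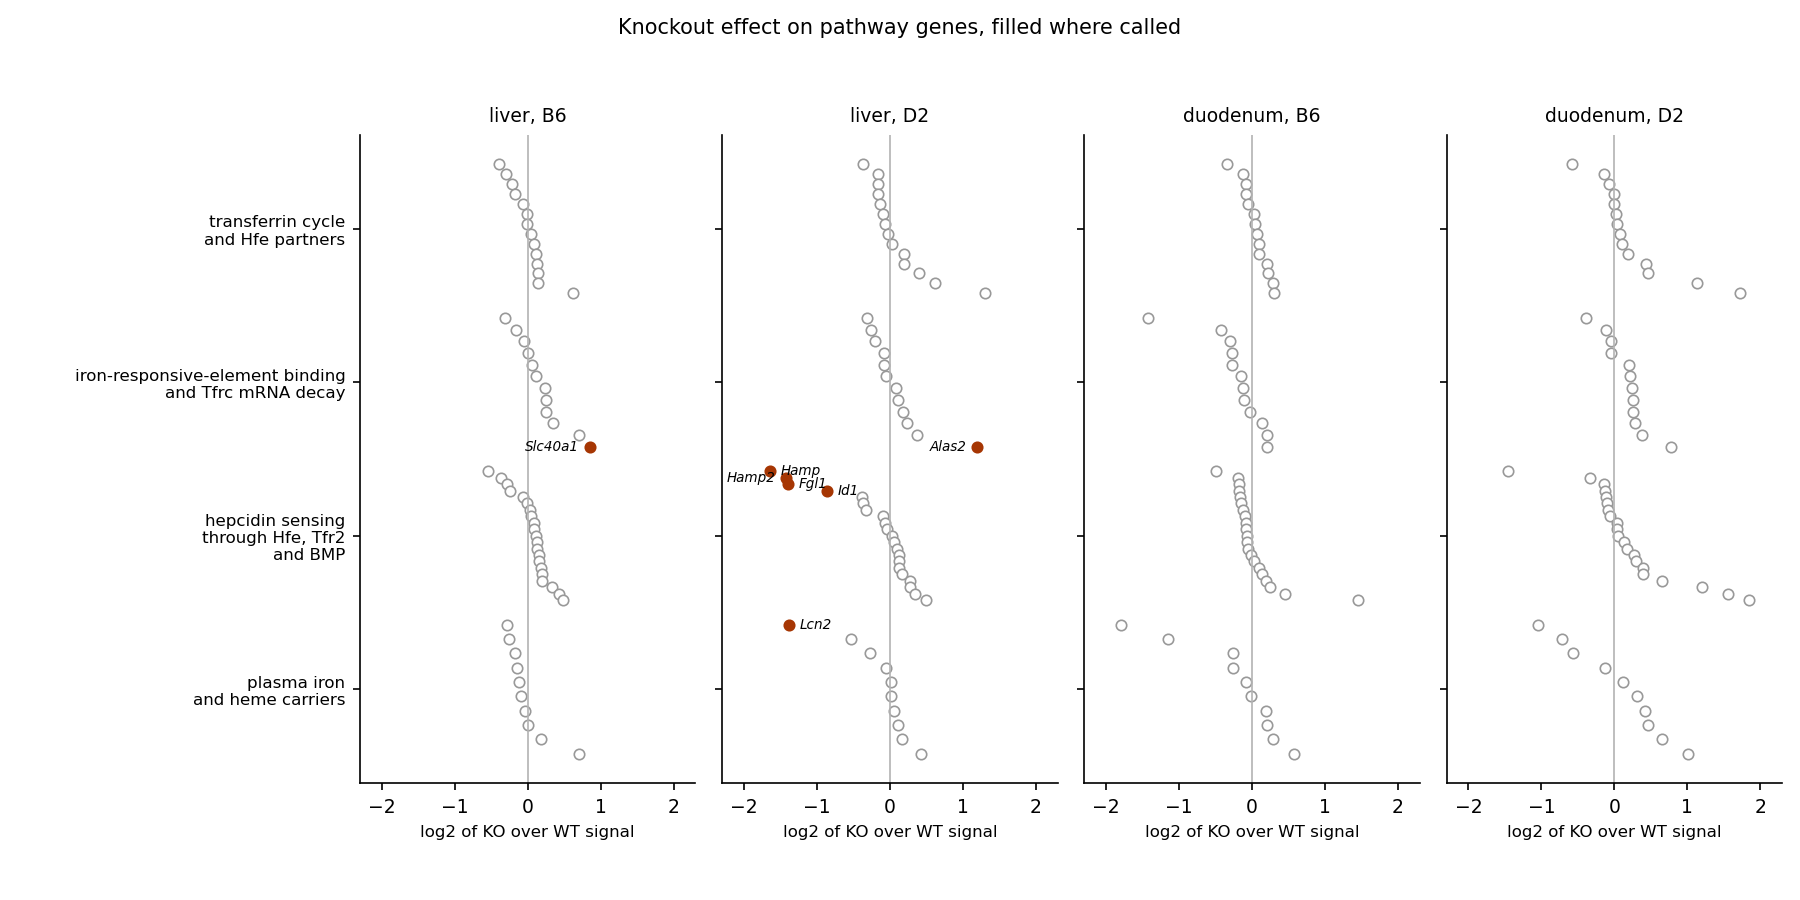
Log2 of KO over WT signal (horizontal axis) of the genes of the 4 lists (vertical axis, sorted within a list) in liver and duodenum of each strain, filled and named where called and open otherwise. The called genes are *Slc40a1* in B6 liver and *Alas2*, *Hamp*, *Hamp2*, *Fgl1*, *Id1* and *Lcn2* in D2 liver, and no point is filled in duodenum.

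The genes most like each member were named by the smallest root mean square difference between their log2 signals over the 24 arrays, each gene centered on its own mean. For *Hfe* these were *Dbp* (0.971), *1810010H24Rik* (0.999) and *Pltp* (1.01), at a distance not far under the median of 1.73 over all genes. For *Tfrc* they were *Pdgfra* (0.383), *Cyba* (0.396) and *Ank3* (0.411), against a median of 1.23. *Tfr2* was nearest to *Cp*, which encodes the ferroxidase ceruloplasmin (0.568), to *Tmprss6*, the protease matriptase-2 (0.57), and to *Inmt* (0.64), against 3.76. The probe set of *Trf* and *Srprb* was nearest to the plasma protein genes *Rbp4* (0.272), *F10* (0.338) and *Ambp* (0.347), against 3.85. The arrays share tissue, and a gene with a like difference between liver and duodenum comes out as near. How much of each distance lies between and within the tissues was not tested.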

How the data were processed

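RNA of liver and duodenum was hybridized by the authors to 24 Affymetrix mouse arrays, and the deposited intensity values are linear MAS5 signals (software version not given in the sources used here), scaled by the authors to a trimmed mean of 100. The number of arrays limits the precision. Signals were log2-transformed here without adding a pseudocount. The AFFX controls were set aside, and probe sets whose third-highest signal in liver or in duodenum was at least 20 were kept, 28061 of 45101. In R 4.3.3, limma 3.58.1 (lmFit, eBayes with a trend) was fitted to the 12 arrays of a tissue as 4 groups, and to all 24 arrays for the tissue difference. Within a tissue, replicates are separate mice. Benjamini-Hochberg adjustment ran over all probe sets kept. Calls were made up to an adjusted p of 0.1 for genotype and interaction, and up to 0.01 for strain and tissue. An exact permutation test of 3 against 3 arrays cannot give a two-sided p below 0.1.

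Members, lists and tests were chosen with earlier results of these data known. All member probe sets are named. Of the lists, genes called for genotype are named, with *B2m*, *Steap3*, *Hamp*, *Ireb2* and *Aco1*. Each list gene is represented by its brightest kept probe set that names no other gene. Runs (arrays started within 15 min of each other) and stations come from the experiment files. The study's own S-score test needs probe-level files, which were not used here. The fit was tested on simulated data. Alternatives were log2 of signal plus 16, quantile normalization, other filters (none, or a third-highest signal of 100), no variance trend, only the 6 arrays compared, replicate number and hybridization run as blocks, the mean of a gene's probe sets, other thresholds, and each array left out. Run with station as a block, controls kept in, both marker covariates, and leaving out D2 KO 2 and 3 were added after seeing the data.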

Additional observations from a re-analysis of the deposited data

How the results depend on the processing

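Of 1683 values recomputed under an alternative, 1625 kept their direction and side of the threshold, 41 lost a call, 17 gained one and 0 reversed among called values. Direction changed for 92 values that were not called. The liver calls of *Hfe* between genotypes held under every alternative run (log2 -2.96 to -2.44 in B6, -2.71 to -1.76 in D2). In duodenum its B6 call was lost with only the 6 arrays compared (-2.03), with run or run and station as a block (-1.79 in both), with the mean of its probe sets (-1.87) and with the proliferation covariate (-1.98), and its D2 call with run and station (-1.42), the mean of its probe sets (-1.06), and the proliferation covariate (-1.56). It was also lost with D2 KO 2 and 3 left out (-1.77), a larger difference that rests on the 1 D2 KO array left, assumed to vary like the other groups. With 1 array left out these ranged from -2.15 to -1.80 and from -1.64 to -1.32. The *Hfe* strain difference in WT liver (-0.57) was lost with no trend (-0.57), run (-0.68), run and station (-0.80) and the mean of probe sets (-1.17), and ranged from -0.65 to -0.53 with 1 array left out. *Tfrc* in D2 liver (-1.25) was lost with no trend (-1.25) and with the mean of probe sets (-1.31), and ranged from -1.42 to -1.05 with 1 array left out. In B6 liver *Tfrc* was called with the filter at 100 (-0.95) and ranged from -1.23 to -0.73. In D2 duodenum it was called with log2 of signal plus 16 (-0.85) and the filter at 100 (-0.87) and ranged from -1.14 to -0.67, and the D2 effect minus the B6 effect from -1.11 to -0.64. The *Tfrc* tissue difference lost its call with run as a block (-1.27 in B6, -1.43 in D2). The cause of these changes was not tested.

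The labels do not say whether a replicate number is the same mouse in liver and duodenum. The main tissue fit took all arrays as independent. Deviations of same-numbered arrays of different groups, which are different mice, correlated at -0.02 to 0.05 within liver and -0.2 to 0.12 within duodenum. The consensus correlation of liver and duodenum arrays with one label was 0.017. For 7 of 12 liver arrays the best duodenum partner, of the 3 in the group, had the same number. A low correlation between different tissues cannot show that the arrays come from different mice. With replicate number as a block *Tfrc* in D2 duodenum was -0.87 (limma adjusted p = 0.131) and no call of a member changed. In D2 duodenum 42 probe sets were then called in place of 106. Within a tissue this block groups different mice by number, so it cannot say whether a mouse gave both tissues.

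The number of probe sets called moved widely. In B6 liver it was 287 and ran from 26 (no trend) to 466 (filter at 100), in D2 liver 773 and from 66 (run and station as a block) to 1740 (without D2 KO 1), and for the liver interaction 60 and from 0 to 635 with the same settings. In duodenum it was 3 in B6 and from 0 to 6, 106 in D2 and from 6 (proliferation covariate) to 783 (without D2 KO 1), and 4 for the interaction and from 0 to 349. Between strains it was 1222 (52 to 2273) in WT liver, 1326 (47 to 2596) in KO liver, 946 (92 to 1780) in WT and 1025 (104 to 2123) in KO duodenum, and between tissues 12539 (5895 to 15600) in B6 and 12452 (4857 to 15347) in D2. With the filter at 100 the liver interaction had 149. Pathway genes called between WT duodena were 2 with that filter in place of 1. Signals near the array medians limit *Tfr2* in duodenum and the dim probe sets of *Hfe* and *Tfrc*.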
